A study of Homo sapiens with 6 samples.

Results

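The nuclear genes for mitochondrial respiratory complexes II, III, IV and V were examined in ARPE-19, a spontaneously arising human cell line from the retinal pigment epithelium, after exposure to trans,trans-2,4-decadienal (tt-DDE). Members were the gene names of the deposited expression table that begin with SDHAF, UQCR, COX plus a digit or ATP5, together with SDHA to SDHD and CYC1. This gave 64 names on 67 rows of 19514 names on 22312 rows, and rows sharing a name were summed. They comprised 8 names of complex II, 10 of complex III, 17 of the complex IV subunits, 9 assembly factors of complex IV that carry a COX name, and 20 of complex V. The subunits encoded by mitochondrial DNA were not analysed here.

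Complex II, succinate dehydrogenase, passes electrons from the tricarboxylic acid cycle to ubiquinone, and it is the respiratory complex with no subunit made from mitochondrial DNA. Complex III moves the electrons on to cytochrome c, and complex IV hands them to oxygen. Complex V, the ATP synthase, uses the proton gradient so formed to make ATP. The retinal pigment epithelium relies on oxidative phosphorylation in the eye.

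The 2 groups were wild-type ARPE-19 cells given 40 µM tt-DDE, a lipid-derived unsaturated aldehyde, and the same cells given its vehicle DMSO. Both were kept in serum-containing medium and collected after 24 h, with 3 libraries of poly(A)-selected RNA per group. The labels do not say whether the libraries came from separate cultures, so p-values measure the spread between these libraries, which may be technical. Library totals were 14156421 to 17130543 counts, for which 3 counts, taken as the counting floor, equal 0.175 to 0.212 CPM (counts scaled to library size). The floor was scaled to these totals alone, while CPM given elsewhere use the counts of tested names and edgeR's TMM factors. Principal component 1 took 94.0% of the variance and set tt-DDE apart from DMSO. Of the retinal pigment epithelium markers, RPE65 had 0 counts in every library, whereas MITF was at 59.4 ± 3.50 CPM and OTX2 at 64.0 ± 2.06 CPM in DMSO (SD, n = 3). Of 13 tested markers of this cell type 6 fell and 4 rose, and the sum of the list went from 1988 to 2036 CPM in DMSO to 849 to 877 CPM after tt-DDE. KRT8, KRT18 and EZR, which make up most of that sum, had log2 fold changes of -1.81, -1.33 and -1.15, and RDH5 of -2.38, while BEST1 and MERTK rose (5.39 and 2.40). Among 8 leukocyte markers the summed level was 129 to 134 CPM in DMSO and 102 to 120 CPM after tt-DDE, nearly all of it CD68, and CD3E was at 0. Of 3 tested leukocyte markers 1 fell and 1 rose, the latter with a log2 fold change of 5.15 that the sum does not show. The 6 endothelial markers summed to 1.46 to 2.19 CPM in any library. The 9 photoreceptor and neuronal markers summed to 34.2 to 37.2 CPM in DMSO and 52.3 to 56.2 CPM after tt-DDE, with SAG, CRX and NEFL at 0. Of 4 tested in that list 2 rose and 0 fell, and the highest log2 fold change was 6.60. The part of these markers in the results was not tested.

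Most members fell after tt-DDE, in every complex. Of 55 members with enough counts to test, 44 were lower, 7 were higher and 4 did not pass at an adjusted p of 0.05 (edgeR quasi-likelihood, Benjamini-Hochberg over all 12531 names tested). Across all names tested, 41.6% were lower and 41.7% were higher, so that 83.3% passed in either direction. The members' shares were 80.0% lower and 12.7% higher. Their median log2 fold change was -0.59, beside 0.00134 for all names tested. A fall of at least 2-fold was seen in 13 members and a rise of that size in 2, where the background was 16.8% and 16.1%. Each tested member had at least 13 counts in every library, so none passed the filter through 1 group alone. All tt-DDE libraries lay below all DMSO libraries in 44 members and above them in 6, beside 41.9% and 42.0% of all names tested, and 5 members overlapped. In cultures measured in bulk, fewer cells with a transcript and less of it per cell cannot be told apart.

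Complex V had the lowest median and complex IV subunits the median nearest to 0. The numbers lower and higher were 5 and 3 of 8 in complex II, 7 and 1 of 10 in complex III, and 10 and 1 of 11 among complex IV subunits. They were 6 and 2 of 8 among the COX-named assembly factors and 16 and 0 of 18 in complex V. The medians in that order were -0.52, -0.52, -0.37, -0.54 and -0.69. Summed over its members, complex V RNA went from 2793 ± 3.77 to 1685 ± 63.1 CPM (SD, n = 3), which is 60.3% of the DMSO level. The sums of complexes II, III and IV subunits were at 77.9%, 65.9% and 78.0% of theirs. The 8 names of complex II include 4 assembly factors, whose sum was at 111% of the DMSO level. Most of that sum was SDHAF2, at 57.9 of 80.0 CPM in DMSO and 78.7 of 89.1 CPM after tt-DDE. The median log2 fold change of the 4 factors was -0.55, with 2 lower and 2 higher. The 4 complex II subunits alone were at 72.7%. No test was made of the difference between complexes.

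**Figure D1:**
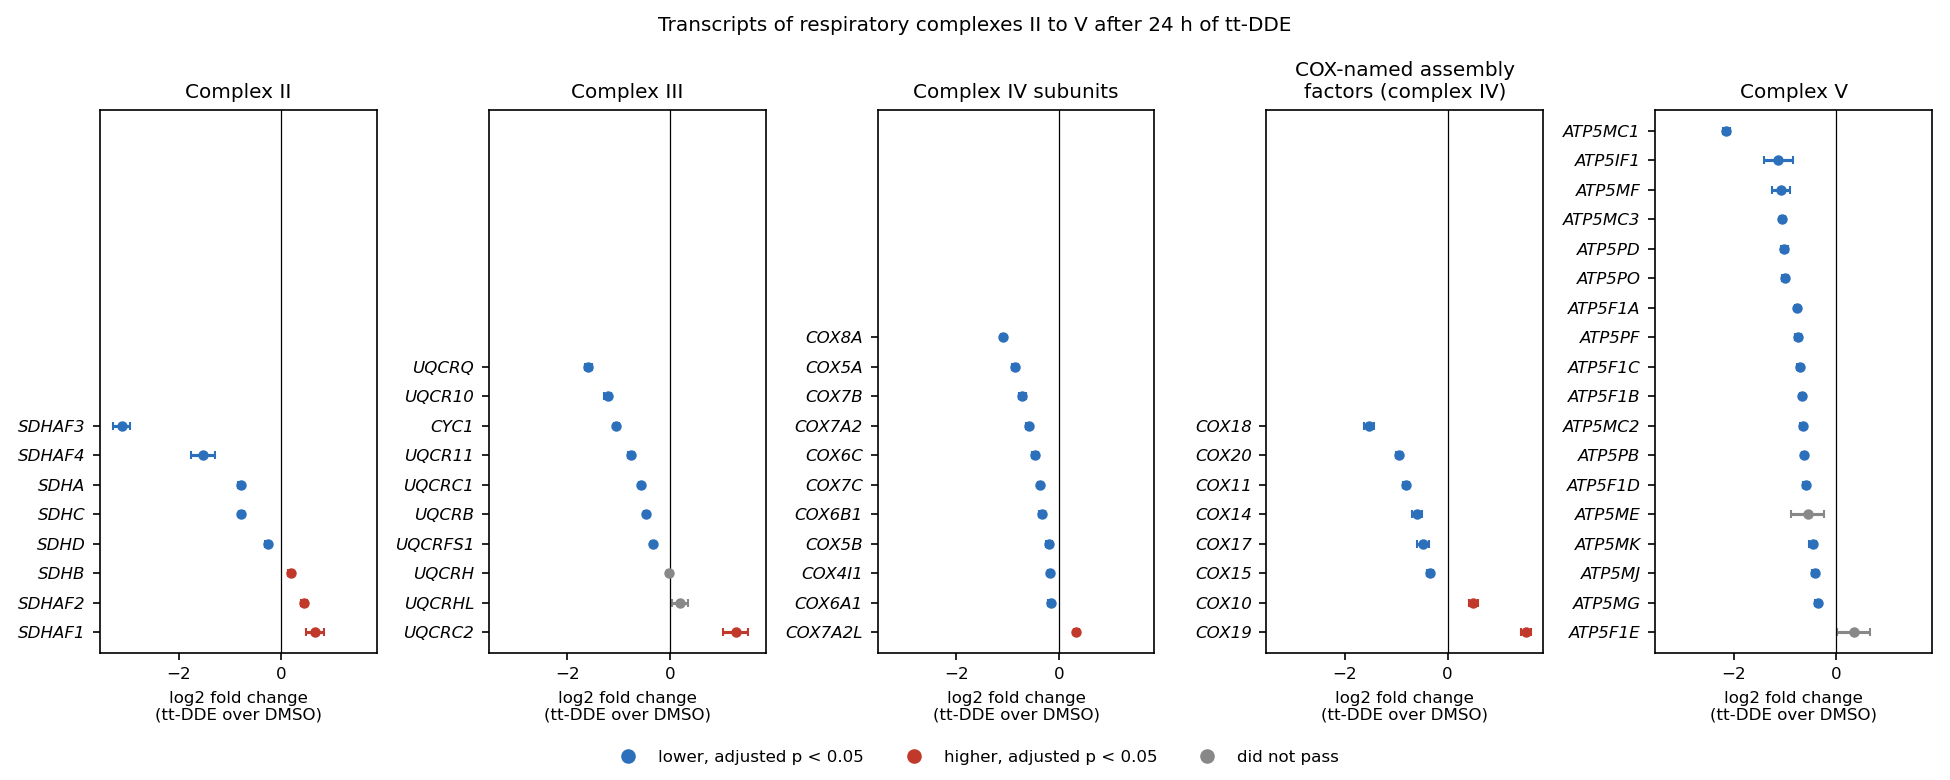
Log2 fold change (tt-DDE over DMSO, horizontal axis) of the 55 members tested, 1 panel per complex, with bars of 1 standard error. Each standard error was derived from edgeR's test, as the absolute log2 fold change over the square root of the F statistic. Blue points are lower, red points higher and grey points did not pass; complex V has 16 blue and no red points, while complex II runs from SDHAF3 at -3.11 to SDHAF1 at 0.66.

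The promoters shown are those of the member that fell furthest in each of the 5 classes, of COX19, which rose most, and of SDHAF2, whose window held the most motif matches, because many respiratory genes are known targets of NRF1 and of the ETS factor GABPA. The windows are the 250 bases before each gene start, from the RefSeq promoter table on GRCh38.p14, at the start nearest to the table row. Capitals mark CCGGAAG, the ETS core, or CATGCGC, the core of the NRF1 site, on either strand.
SDHAF3, chr7:97117448-97117697, plus strand: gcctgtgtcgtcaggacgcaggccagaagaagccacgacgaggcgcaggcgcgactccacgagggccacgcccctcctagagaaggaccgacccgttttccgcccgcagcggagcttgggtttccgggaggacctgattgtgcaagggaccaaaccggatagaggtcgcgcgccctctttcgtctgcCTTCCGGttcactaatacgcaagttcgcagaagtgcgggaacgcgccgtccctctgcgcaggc
UQCRQ, chr5:132866392-132866641, plus strand: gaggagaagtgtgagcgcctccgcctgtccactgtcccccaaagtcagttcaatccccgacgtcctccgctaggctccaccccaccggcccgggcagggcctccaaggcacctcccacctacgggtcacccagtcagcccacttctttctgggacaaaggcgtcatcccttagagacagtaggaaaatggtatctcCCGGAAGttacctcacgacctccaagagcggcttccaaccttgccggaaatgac
COX8A, chr11:63974370-63974619, plus strand: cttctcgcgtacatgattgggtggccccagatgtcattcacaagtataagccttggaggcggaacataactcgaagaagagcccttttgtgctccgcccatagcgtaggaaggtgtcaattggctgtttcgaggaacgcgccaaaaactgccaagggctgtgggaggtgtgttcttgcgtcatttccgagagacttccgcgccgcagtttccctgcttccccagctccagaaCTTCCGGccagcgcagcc
COX18, chr4:73069760-73070009, minus strand: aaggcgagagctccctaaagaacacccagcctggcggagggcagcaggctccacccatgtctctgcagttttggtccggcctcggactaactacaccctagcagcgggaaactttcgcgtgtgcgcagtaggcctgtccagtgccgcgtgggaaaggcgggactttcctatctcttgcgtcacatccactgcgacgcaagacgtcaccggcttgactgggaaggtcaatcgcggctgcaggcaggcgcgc
ATP5MC1, chr17:48892537-48892786, plus strand: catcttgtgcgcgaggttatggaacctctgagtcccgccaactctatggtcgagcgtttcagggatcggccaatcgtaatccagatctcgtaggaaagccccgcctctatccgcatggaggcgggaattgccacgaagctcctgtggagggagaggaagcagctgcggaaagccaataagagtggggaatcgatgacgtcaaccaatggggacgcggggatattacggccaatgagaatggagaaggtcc
COX19, chr7:975550-975799, minus strand: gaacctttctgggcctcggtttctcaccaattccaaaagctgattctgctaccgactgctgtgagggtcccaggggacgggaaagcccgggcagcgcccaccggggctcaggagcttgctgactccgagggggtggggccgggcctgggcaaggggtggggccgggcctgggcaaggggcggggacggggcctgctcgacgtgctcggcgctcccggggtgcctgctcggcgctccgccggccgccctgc
SDHAF2, chr11:61429874-61430123, plus strand: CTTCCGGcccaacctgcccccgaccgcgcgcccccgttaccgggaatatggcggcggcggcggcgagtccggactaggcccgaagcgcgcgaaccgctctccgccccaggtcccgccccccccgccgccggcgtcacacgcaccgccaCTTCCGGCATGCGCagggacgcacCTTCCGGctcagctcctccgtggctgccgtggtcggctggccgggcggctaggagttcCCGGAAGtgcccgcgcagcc
The SDHAF3, UQCRQ and COX8A windows hold 1 ETS core each, and the windows of ATP5MC1, COX18 and COX19 hold neither motif. A second RefSeq start of COX18, 61 bp from the end of its row, has a window with the longer palindromic NRF1 site, which reads as 2 overlapping cores, 1 on each strand. SDHAF2 holds 4 ETS cores and 1 NRF1 core, of which an ETS core and the NRF1 core lie side by side without overlap, whereas COX7A2L, SDHAF1 and UQCRC2, which also rose, held neither motif. Promoter windows were found for 45 of the 55 members tested, and 19 of these 45 genes (42.2%) had an ETS core in at least 1 window. Of all 10216 tested genes with windows, 18.7% had one. The NRF1 core was found in 24.4% of those members and in 7.72% of all such genes, and the longer palindromic NRF1 site, which contains that core, in 8.89% and 2.27%. An ETS core was found in 15 of 35 members that fell and 3 of 7 that rose (42.9% each), an NRF1 core in 8 (22.9%) and 2 (28.6%), and the longer site in 4 (11.4%) and 0. These shares rest on few genes and were not tested. A match to these letters is a description and not a binding site.

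In complex II the catalytic subunit and both membrane anchors fell, the iron-sulfur subunit did not, and the assembly factors split. SDHA (chromosome 5, 218309 to 264816), the flavoprotein that oxidises succinate, was at 187, 173 and 186 CPM in DMSO and 100, 106 and 109 CPM after tt-DDE. All tt-DDE libraries lay below all DMSO libraries, and the log2 fold change was -0.79 (SE 0.0444, adjusted p = 5.61e-21). SDHC, an anchor in the inner membrane, was at 124, 119 and 124 CPM and then at 71.4, 73.4 and 69.9 CPM. It fell by a similar amount (log2 fold change -0.78, SE 0.0474, adjusted p = 1.47e-19). SDHD, the other anchor, was at 124, 138 and 132 CPM against 108, 112 and 108 CPM, a smaller fall without overlap (-0.27, SE 0.0457, adjusted p = 9.52e-07). SDHB (chromosome 1, 17018722 to 17054032), which carries the iron-sulfur clusters, was at 80.5, 77.7 and 74.2 FPKM (fragments scaled to gene length and library size) in DMSO and 77.2, 83.9 and 85.8 FPKM after tt-DDE. On that scale the groups overlapped, while in CPM, which carry the TMM scaling, the DMSO libraries at 72.7 to 79.4 lay below the tt-DDE libraries, the lowest of which was at 80.7. SDHB rose slightly (log2 fold change 0.18, SE 0.0523, adjusted p = 0.00176), a call that was lost when library size alone was scaled (0.09, adjusted p = 0.114).

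SDHAF3 (chromosome 7, 97117698 to 97181763) had the largest fall of all 55 members tested. It assists the maturation of SDHB together with SDHAF1, as known from yeast and Drosophila. Its level was 13.6, 13.4 and 11.95 CPM in DMSO and 1.44, 1.76 and 1.26 CPM after tt-DDE. The groups were far apart, with 8.64 times less after tt-DDE (log2 fold change -3.11, SE 0.172, adjusted p = 3.93e-21), and 1.07% of all genes tested had a lower log2 fold change. SDHAF4, which binds the flavinylated SDHA before it meets SDHB, was low in both groups, at 4.33, 4.09 and 4.74 CPM against 1.80, 1.07 and 1.66 CPM (log2 fold change -1.53, SE 0.232, adjusted p = 8.26e-08). SDHAF2 (chromosome 11, 61430124 to 61446733), needed for attaching the flavin to SDHA, was at 55.6, 59.7 and 58.6 CPM and then at 75.6, 85.7 and 74.8 CPM. It rose with no overlap (0.44, SE 0.0563, adjusted p = 1.57e-09). SDHAF1, an iron-sulfur transfer factor for SDHB, was at 5.22, 4.33 and 4.50 CPM against 7.75, 5.17 and 9.24 CPM. Library 2 of tt-DDE lay within the DMSO range, although the rise passed (0.66, SE 0.171, adjusted p = 0.000559).

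In complex III small subunits and cytochrome c1 fell most, and the hinge protein did not pass. UQCRQ (chromosome 5, 132866642 to 132868847), a small subunit near the ubiquinone site, was at 79.6, 82.1 and 88.8 CPM in DMSO and 27.0, 25.5 and 30.8 CPM after tt-DDE. It was 3.01 times lower (log2 fold change -1.59, SE 0.0645, adjusted p = 3.20e-26), and its row overlaps GDF9, which had 112 counts over 6 libraries, on the other strand. UQCR10, a small subunit beside cytochrome c1, was at 67.2, 76.3 and 76.1 CPM and then at 32.5, 27.9 and 34.6 CPM (log2 fold change -1.21, SE 0.0666, adjusted p = 3.20e-21). CYC1, the cytochrome c1 that passes electrons to cytochrome c, was at 129, 128 and 130 CPM against 62.5, 63.1 and 62.3 CPM, with hardly any spread inside either group (log2 fold change -1.04, SE 0.0474, adjusted p = 2.47e-24). These 3 were the members of complex III with a fall of at least 2-fold.

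The other falls in complex III were smaller. UQCR11, another small subunit, was at 84.8, 88.0 and 82.9 CPM against 46.9, 49.1 and 55.6 CPM (log2 fold change -0.76). UQCRC1, the first core protein, was at 252, 239 and 248 CPM against 164, 157 and 178 CPM (log2 fold change -0.56). UQCRB, which binds ubiquinone, was at 139, 147 and 145 CPM against 105, 103 and 104 CPM (log2 fold change -0.47). None of these 3 had overlapping groups, and neither had UQCRFS1, the Rieske iron-sulfur protein (log2 fold change -0.33, adjusted p = 1.08e-08). UQCRH, the hinge protein between cytochrome c1 and cytochrome c, was at 107, 113 and 113 CPM and at 107, 107 and 114 CPM. The groups overlapped, and it did not pass (log2 fold change -0.02, SE 0.0458, adjusted p = 0.690), though with library size alone it was lower (-0.11, adjusted p = 0.0229). Its near-identical retrocopy UQCRHL was at 5.01 to 6.22 CPM in DMSO and 5.83 to 7.18 CPM after tt-DDE and did not pass; reads of the pair may be divided between both rows. UQCRC2, the second core protein, is treated with the other low rows further on.

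Among complex IV subunits 10 of 11 tested fell, mostly by little. COX8A (chromosome 11, 63974620 to 63976543), the smallest nuclear subunit, was at 179, 177 and 183 CPM in DMSO and 83.9, 78.9 and 90.9 CPM after tt-DDE. It fell 2.12-fold (log2 fold change -1.09, SE 0.0465, adjusted p = 2.42e-25), the only complex IV subunit to fall by at least 2-fold. COX5A, a matrix-side subunit, was at 88.1, 92.2 and 96.6 CPM against 53.0, 47.6 and 53.0 CPM (log2 fold change -0.85, SE 0.0551, adjusted p = 1.14e-18). COX7B was at 55.4, 58.1 and 60.1 CPM against 32.8, 33.0 and 40.3 CPM (log2 fold change -0.71, SE 0.0672, adjusted p = 3.03e-13). In all 3 the groups stayed apart.

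A further 6 subunits fell by less. COX7C was at 146, 153 and 162 CPM against 118, 117 and 122 CPM (log2 fold change -0.37). COX6C and COX6B1, the latter facing the intermembrane space, had log2 fold changes of -0.46 and -0.32. COX4I1, the largest nuclear subunit and the site of ATP inhibition, was at 220, 242 and 235 CPM and then at 204, 201 and 215 CPM (log2 fold change -0.17, SE 0.0405, adjusted p = 0.000146). COX6A1 was at 137, 135 and 134 CPM against 116, 121 and 126 CPM (log2 fold change -0.16, SE 0.0439, adjusted p = 0.00120). Both groups of COX4I1 and of COX6A1 were apart by a narrow margin. COX5B, which binds zinc, overlapped between groups, at 66.3, 62.9 and 68.0 CPM against 55.5, 54.0 and 63.7 CPM (log2 fold change -0.19, adjusted p = 0.00355).

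COX7A2L (chromosome 2, 42335559 to 42368957) was the complex IV member that rose. The protein joins complex III to complex IV in supercomplexes rather than serving as an ordinary subunit. Its level was 95.7, 103 and 105 CPM in DMSO and 132, 129 and 125 CPM after tt-DDE, and the groups did not overlap (log2 fold change 0.34, SE 0.0461, adjusted p = 5.33e-09).

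The COX-named assembly factors moved both ways, with the steps of copper and heme delivery on both sides. COX19 (chromosome 7, 964852 to 975549), an intermembrane space protein that works with COX11 in copper handling, was at 9.48, 9.76 and 10.3 CPM in DMSO and 27.2, 31.4 and 26.1 CPM after tt-DDE. It rose 2.87-fold (log2 fold change 1.52, SE 0.0975, adjusted p = 8.17e-19). COX11, which helps to place copper in the COX1 subunit, was at 85.9, 90.7 and 92.5 CPM against 53.6, 50.8 and 48.9 CPM (log2 fold change -0.81, SE 0.0541, adjusted p = 3.21e-18). COX11 shares its position with STXBP4 and TOM1L1 on the other strand, which had 1161 and 5106 counts beside its own 6710. COX17, the copper chaperone of the intermembrane space, was at 13.7, 14.6 and 14.3 CPM against 11.5, 8.32 and 10.7 CPM (log2 fold change -0.48, adjusted p = 0.000213).

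For heme, COX10, which makes heme O, was at 18.1, 20.1 and 17.2 CPM and then at 25.2, 27.8 and 25.4 CPM. It rose without overlap (log2 fold change 0.50, SE 0.0861, adjusted p = 1.17e-06). COX15, which turns heme O into heme A, was at 72.0, 72.7 and 68.7 CPM against 58.4, 55.1 and 54.2 CPM and fell (log2 fold change -0.35, SE 0.0547, adjusted p = 1.98e-07). COX15 overlaps ENTPD7 on the other strand, with 4093 counts beside its own 6047. COX18 (chromosome 4, 73052362 to 73069777), which moves a tail of the COX2 subunit across the inner membrane, was at 25.3, 26.4 and 23.7 CPM and then at 9.14, 8.38 and 8.57 CPM. This was the largest fall in the class, 2.89-fold (log2 fold change -1.53, SE 0.100, adjusted p = 1.67e-18). COX20, a chaperone of the same COX2 subunit, was at 60.4, 67.5 and 65.8 CPM against 34.1, 35.3 and 31.6 CPM (log2 fold change -0.94, SE 0.0625, adjusted p = 2.92e-18). COX14, which supports the synthesis of COX1, was at 21.1, 19.8 and 22.2 CPM against 14.5, 13.1 and 14.3 CPM (log2 fold change -0.59, SE 0.0946, adjusted p = 2.76e-07). All 8 factors tested kept their groups apart, as did 83.9% of all names tested, counting both directions.

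**Figure D2:**
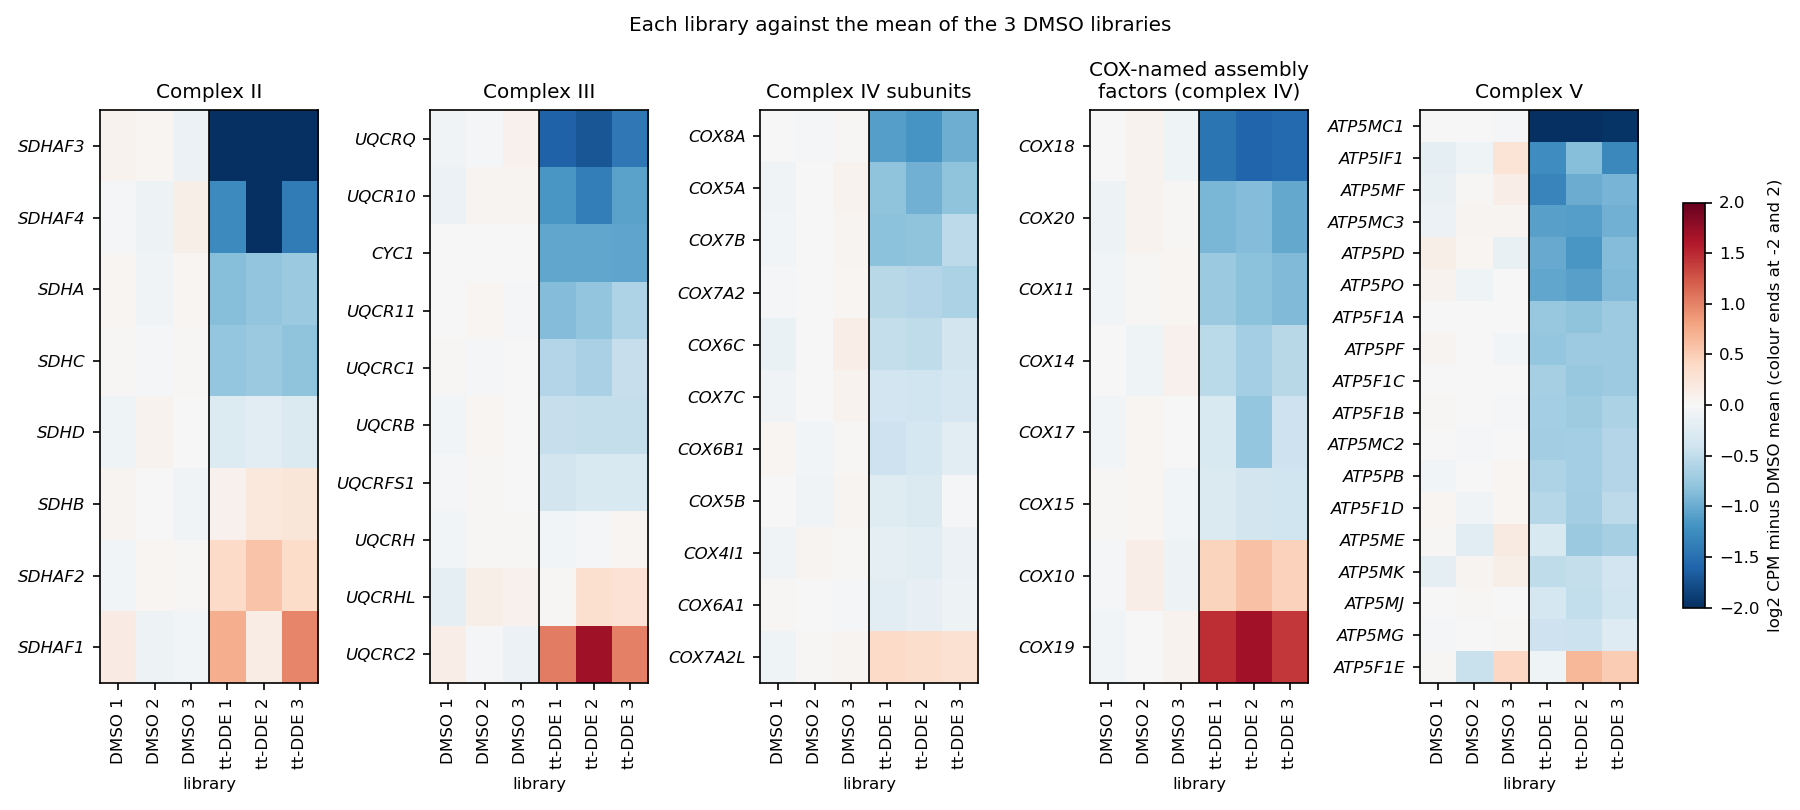
Colour shows log2 CPM of each tested member (rows) in each library (columns) minus the mean of the 3 DMSO libraries, with blue lower and red higher. The 3 tt-DDE columns of a row share a colour for most members; SDHAF1 is pale in tt-DDE library 2, where it was at 5.17 CPM.

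In complex V 16 of 18 tested members fell, among them genes of the catalytic head, the peripheral stalk and the membrane ring. ATP5F1B (chromosome 12, 56638175 to 56645984), the catalytic beta subunit, was at 894, 882 and 868 CPM in DMSO and 550, 539 and 571 CPM after tt-DDE (log2 fold change -0.67, SE 0.0345, adjusted p = 2.46e-22). ATP5F1A, the alpha subunit, was at 523, 519 and 517 CPM against 306, 297 and 315 CPM (log2 fold change -0.77, SE 0.0357, adjusted p = 6.67e-24). ATP5F1C, the rotating gamma subunit, was at 153, 152 and 151 CPM against 95.9, 89.8 and 92.3 CPM, and ATP5F1D, the delta subunit, had a log2 fold change of -0.60. The alpha, beta, gamma and delta genes thus lay between -0.60 and -0.77.

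The subunits of the peripheral stalk, which holds the head still, fell in 4 of 4 cases. ATP5PO, the stalk protein that confers oligomycin sensitivity, was at 137, 123 and 132 CPM against 63.7, 61.3 and 71.1 CPM (log2 fold change -1.002, SE 0.0522, adjusted p = 4.31e-22). ATP5PD, subunit d, was at 100, 94.9 and 84.0 CPM against 46.3, 41.3 and 50.7 CPM (log2 fold change -1.01, SE 0.0627, adjusted p = 2.28e-19). Its row overlaps KCTD2 on the other strand, with 4085 counts beside its own 6604. ATP5PF and ATP5PB, subunits F6 and b, fell less (log2 fold change -0.74 and -0.63). The row of ATP5PF overlaps GABPA on the other strand, with 4306 counts beside its own 5914. Of the membrane subunits that take part in dimers of the enzyme, ATP5MG was at 144, 146 and 149 CPM against 110, 109 and 123 CPM (log2 fold change -0.36). ATP5MJ and ATP5MK had log2 fold changes of -0.41 and -0.46, and ATP5MK overlaps TAF5 on the other strand, with 777 counts beside its own 4021. As the use of strand is not known, reads of such opposite pairs cannot be told apart. These 3 fell least among the complex V genes of at least 10 CPM.

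ATP5MC1 (chromosome 17, 48892787 to 48895871), 1 of 3 genes for the c subunit that forms the rotor ring in the membrane, fell most in complex V. It was at 66.6, 67.2 and 65.8 CPM in DMSO and 14.7, 13.5 and 17.1 CPM after tt-DDE. The fall was 4.42-fold (log2 fold change -2.14, SE 0.0731, adjusted p = 3.95e-29), and 3.67% of all genes tested had a lower log2 fold change. The 3 genes encode the same mature protein with different import sequences. ATP5MC3 was at 170, 191 and 192 CPM against 87.0, 85.2 and 94.9 CPM (log2 fold change -1.05, SE 0.0482, adjusted p = 3.66e-24). ATP5MC2 was at 156, 153 and 156 CPM against 95.2, 96.4 and 103 CPM (log2 fold change -0.66, SE 0.0444, adjusted p = 5.01e-18). The sum of the 3 genes went from 405 ± 11.4 to 202 ± 11.03 CPM (SD, n = 3), which is 49.9% of the DMSO level.

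The balance between paralogues was compared within each library, in 6 pairs with both genes tested, by an exact two-sided permutation test whose smallest p is 0.1. The log2 ratio of ATP5MC1 to ATP5MC2 counts was -1.22 ± 0.0320 in DMSO and -2.71 ± 0.125 after tt-DDE (SD, n = 3, difference -1.49, exact permutation p = 0.1, adjusted p = 0.12 over the pairs). For ATP5MC1 to ATP5MC3 it was -1.47 ± 0.102 and -2.56 ± 0.0962 (SD, n = 3, difference -1.10, exact permutation p = 0.1). For ATP5MC2 to ATP5MC3 it was -0.25 ± 0.109 and 0.14 ± 0.0308 (SD, n = 3, difference 0.39, exact permutation p = 0.1). The ratios of the groups did not overlap in these pairs, and p is the smallest that 3 against 3 allows. ATP5MC1 held 50.5%, 49.5% and 48.6% of the summed FPKM of the c subunit genes in DMSO. After tt-DDE it held 28.5%, 26.9% and 30.04%. Of their summed counts, ATP5MC1 held 16.98%, 16.39% and 15.92% in DMSO and 7.45%, 6.91% and 7.98% after tt-DDE. The FPKM share is higher because FPKM divides by the length of the table row. That length was 646 bp for ATP5MC1, 3016 bp for ATP5MC2 and 3430 bp for ATP5MC3. The share of ATP5MC1 fell on both scales, but its size depends on these lengths.

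COX7A2, the COX7A subunit of most tissues, was at 78.0, 79.8 and 82.3 CPM in DMSO and 54.8, 53.3 and 51.5 CPM after tt-DDE (log2 fold change -0.59, SE 0.0536, adjusted p = 1.00e-13), opposite to COX7A2L. Their log2 ratio, COX7A2 to COX7A2L, was -0.34 ± 0.0411 and then -1.28 ± 0.00296 (SD, n = 3, difference -0.93, exact permutation p = 0.1, the smallest possible, adjusted p = 0.12). The log2 ratio of UQCRH to UQCRHL went from 4.26 ± 0.129 to 4.03 ± 0.150 (SD, n = 3, exact permutation p = 0.2). For UQCRC1 to UQCRC2, both core proteins, it went from 7.22 ± 0.115 to 5.43 ± 0.462 (SD, n = 3, difference -1.79, exact permutation p = 0.1). This ratio rests on low counts of UQCRC2, 77 over the DMSO libraries and 187 over the tt-DDE libraries. Heart, lung or testis forms were nearly silent: COX4I2, COX6A2, COX7B2 and COX8C had 0 or 1 count over all 6 libraries. COX7A1, the muscle form, had 13 counts in DMSO and 2 after tt-DDE. COX6B2, the testis form, had 0 counts in DMSO and 5, 9 and 1 counts after tt-DDE. Scaled to depth, the tt-DDE sum was 4.69 times a floor of 3 counts over the whole DMSO group. That ratio leaves out the counting error of the tt-DDE counts, the last of which was under 3. COX6B2 had too few counts to be tested.

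**Figure D3:**
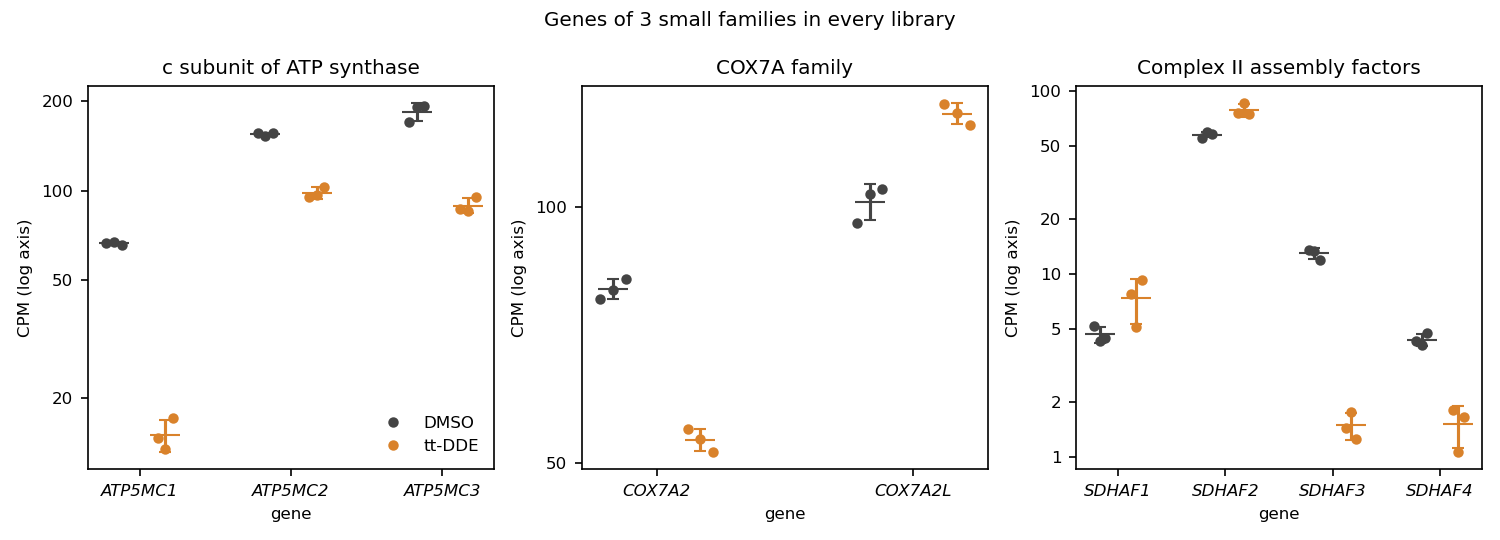
CPM on a log axis in each library for the c subunit genes, 2 COX7A genes and the complex II assembly factors; dots are libraries, and the line and bars are the mean and SD of 3. The tt-DDE dots of ATP5MC1 lie at 13.5 to 17.1 CPM against 65.8 to 67.2 CPM in DMSO, and COX7A2 and COX7A2L move in opposite directions.

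Levels of different genes were compared per length, in FPKM (fragments scaled to gene length and library size, as deposited), which uses the length of the table row. ATP5F1B stood highest of the 55 in both groups, at 523, 517 and 512 FPKM in DMSO and 303, 296 and 314 FPKM after tt-DDE. In DMSO it was followed by COX8A at 375 ± 7.77, COX7C at 252 ± 13.8 and COX4I1 at 194 ± 9.51 FPKM (SD, n = 3), with COX6A1, at 263, 258 and 257.7 FPKM, between COX8A and COX7C. COX6A1 and COX7C did not differ beyond their spread. After tt-DDE the order was COX6A1 at 219 ± 8.68, COX7C at 183 ± 4.47, COX8A at 166 ± 12.02 and COX4I1 at 161 ± 5.69 FPKM (SD, n = 3), and the last 2 overlapped. ATP5MC1 moved from place 13 to place 33 in this order, and SDHB from place 20 to place 10.

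The assembly factors that carry other names were taken from lists drawn up beside the members. For complex III, 7 of 11 tested fell and 2 rose, with a median log2 fold change of -0.31. BCS1L, which inserts the Rieske protein, fell from 29.6 ± 1.55 to 10.9 ± 1.53 CPM (SD, n = 3, log2 fold change -1.44), and UQCC2, an assembly factor for cytochrome b, had a log2 fold change of -1.41. C12orf73, a small protein of complex III assembly, rose from 10.4 ± 0.855 to 98.1 ± 0.775 CPM (SD, n = 3, log2 fold change 3.24). It lies 2267 bp from HSP90B1, which went from 1268 ± 17.4 to 8719 ± 390 CPM, and the part of that neighbour in the value was not tested. For complex IV, 19 of 27 tested fell and 4 rose (median -0.52). FDXR, which supplies electrons for heme A synthesis, had a log2 fold change of -1.82, TIMM21 of -1.46 and COA1 of -1.24, while FASTKD5, needed to process mitochondrial RNA, rose (0.70). For complex V, 2 of 5 tested fell and 2 rose. TMEM70, which helps to build the c ring, rose from 41.4 ± 1.59 to 63.8 ± 1.63 CPM (SD, n = 3, log2 fold change 0.63), whereas ATPAF1 and DMAC2L fell (-0.32 and -0.57). Of 4 genes around cytochrome c, 3 were tested. CYCS, cytochrome c itself, fell from 271 ± 4.72 to 156 ± 2.76 CPM (SD, n = 3, log2 fold change -0.80), HCCS, which attaches its heme, rose (0.64), and NDUFA4, a complex IV subunit with a complex I name, did not pass (-0.09, adjusted p = 0.101).

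The tricarboxylic acid cycle, which feeds complex II directly, had 8 of 14 tested enzymes lower, with a median of -0.43. OGDH and SUCLG2, the steps before succinate, had log2 fold changes of -1.24 and -1.40, and CS, citrate synthase, of -0.86. Of 22 tested factors for mitochondrial biogenesis and the expression of mitochondrial DNA, 12 fell and 5 rose (median -0.28). PPARGC1B, a coactivator of respiratory genes, fell from 8.24 ± 0.436 to 1.38 ± 0.474 CPM (SD, n = 3, log2 fold change -2.58), and TFAM, which packages mitochondrial DNA, had a log2 fold change of -0.68. GABPB1, the partner of GABPA at ETS sites, rose (1.10). Genes of cristae organisation fell in 8 of 12 cases and rose in 2 (median -0.32), with IMMT, the mitofilin of the inner membrane, at -1.07, MICOS13 at -0.71 and APOOL at 0.59. Beside these lists the background is the same 41.6% lower and 41.7% higher.

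Complex I and the mitochondrial ribosome were set beside complexes II to V. Complex I subunits had 28 of 36 tested lower (77.8%) and 2 higher, with a median of -0.47. Mitochondrial ribosomal proteins had 46 of 76 tested lower (60.5%) and 13 higher, with a median of -0.37. The medians of complexes II to V, from -0.37 to -0.69, covered both values, and no test of the difference was made. Summed RNA was at 69.7% of the DMSO level for complex I and at 80.3% for the ribosomal proteins, against 67.3% for all members here.

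**Figure D4:**
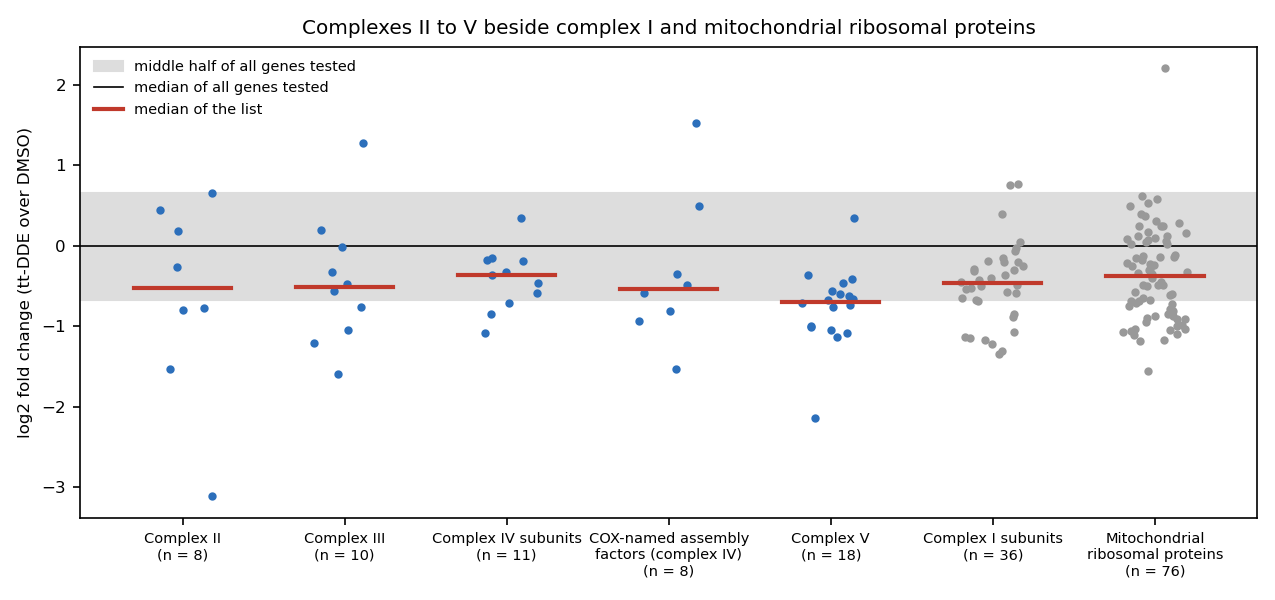
Log2 fold change (vertical axis) of each tested gene (dots) in complexes II to V (blue), complex I and mitochondrial ribosomal proteins (grey), with list medians in red. The grey band spans the lower to upper quartile of all genes tested, -0.68 to 0.66; every list median lies below 0, and that of complex V, -0.69, lies at the edge of the band.

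Some members had far fewer counts than their complex partners. The 8 tested members under 10 CPM in both groups were ATP5F1E, ATP5IF1, ATP5ME, ATP5MF, SDHAF1, SDHAF4, UQCRC2 and UQCRHL. UQCRC2 and ATP5IF1 each have a second row on a patch scaffold, and the row on the chromosome held 29.6% and 0.62% of their counts. UQCRC2 over both rows was at 1.79, 1.59 and 1.50 CPM in DMSO and 3.31, 5.23 and 3.26 CPM after tt-DDE (log2 fold change 1.28, adjusted p = 5.96e-06), but on the chromosome row alone it did not pass (0.67, adjusted p = 0.109). ATP5IF1, the inhibitor of ATP synthase, was at 1.99, 2.14 and 2.76 CPM against 0.962, 1.26 and 0.931 CPM (log2 fold change -1.13, adjusted p = 0.000455). ATP5MF, subunit f, fell from 6.76 to 3.21 CPM and overlaps the readthrough gene ATP5MF-PTCD1, which had 0 counts. ATP5F1E, the epsilon subunit, at 0.793 to 1.70 CPM, and ATP5ME, subunit e, at 0.882 to 1.68 CPM, did not pass (adjusted p = 0.331 and 0.0976). The RefSeq table lists a readthrough gene over ATP5F1E. On the other strand ATP5F1E overlaps TUBB1, with 71 counts beside its own 120. ATP5ME overlaps MYL5 on the other strand, with 744 counts beside its own 119. COX16, under another readthrough gene, had 8 counts in DMSO and 5 after tt-DDE, and ATP5MGL had 3 counts in all. The part of these overlaps in the low counts was not tested. Without the 8 low members, 41 of 47 were lower and 5 higher.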

How the data were processed

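Polyadenylated RNA of ARPE-19 cells treated for 24 h with 40 µM tt-DDE or DMSO was sequenced, 3 libraries per group, and with group and replicate read from each title. Per the file headers, the authors deposited a raw read count and an FPKM value per gene row and library. Per the submitters' processing notes the genome was GRCh38.p13. Aligner, counting program and use of strand: not given in the sources used here. Each of the 91254 nonzero deposited FPKM matched count over length and column total (tolerance 1e-06, relative). Read counts of rows sharing a name were summed over the whole table. The main test was edgeR's quasi-likelihood test (version 4.0.16, R 4.3.3, TMM, filterByExpr, 2 groups, no covariate), and p-values were adjusted over 12531 names. Each SE of a log2 fold change was derived from that test, as its absolute value over the square root of the F statistic. CPM use the TMM factors, except for the counting floor, which used the library totals alone. The same code was tested on simulated data in which few genes changed, unlike these data. That run did not cover the scaling where most genes change. Floors cover counting error only, because PCR duplicates cannot be recognised without molecular identifiers. Alternatives were DESeq2 1.42.0 and its size factors, library size alone, other filters, unsummed rows, a replicate block and leaving out each library.

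Members, lists and motifs were chosen with earlier results of these data known. Per class, the up to 6 members with the smallest p, up to 2 of the rarer direction, the 2 of highest FPKM and the paralogue families are given in every library, plus a few others chosen after their values were seen; per further list, 3 genes with the smallest p and the first of the rarer direction. Some genes of these further lists are not reported here.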

Additional observations from a re-analysis of the deposited data

How the results depend on the processing

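Of 710 values of the 55 members under 13 alternatives, 706 kept direction and side of the threshold, and 52 members did so throughout. With library size alone, the median of all genes was -0.09 (log2), and the medians became -0.61 for complex II, -0.61 for complex III, -0.46 for complex IV subunits and -0.78 for complex V. In that setting SDHB did not pass (0.09) and UQCRH passed (-0.11); without summed rows UQCRC2 did not pass (0.67) and the difference in the log2 ratio of UQCRC1 to UQCRC2 was -1.22 in place of -1.79. Under the stricter count filter UQCRH was 0.0078, and the cause was not tested. Leaving out each library in turn gave medians of -0.54 to -0.51 in complex II, -0.54 to -0.49 in complex III, -0.41 to -0.34 in complex IV subunits and -0.72 to -0.67 in complex V, with the same number of calls in each. Same-numbered libraries did not deviate together (correlations 0.0166, -0.00577 and -0.0119). Such values cannot show whether the libraries were paired by design. With a replicate block the count of genes called across the table was 10371 in place of 10433. In that setting 8, 8, 11, 8 and 16 members of the 5 classes passed. The alternatives for paralogue ratios and further lists were chosen after seeing the data. Depth limits the members at a few counts, such as COX7A1 and COX16.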
